A study of Mus musculus with 4 samples.

Results

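The potassium channel genes described here are the protein-coding genes of the mouse RefSeq annotation (GRCm38.p6, the assembly named mm10) whose symbol begins with Kcn, 94 of 21887 genes. Their chromatin was profiled in mouse oligodendrocytes (OLs) and their progenitors (OPCs) by Omni-ATAC-seq, a method that reads where the transposase Tn5 can enter the DNA. The OPCs were derived from 2 lines of epiblast stem cells, 129O1 and EpiSC5. The labels give 129SvEv and 129S1/SvImJ as strains of origin and tie them to the lines only by order. The OPCs were derived without the use of SHH and were kept in bFGF and PDGFA at 20 ng/mL each. Their founders, taken after 4 passages, had been selected by flow cytometry for CD140a and NG2 and then expanded, whereas the OLs were sorted for the O1 antigen, a surface lipid of maturing oligodendrocytes. The labels name no other genotype or agent, and the medium in which the OLs formed is not given in the sources used here. Each cell type had 1 library per line (n = 2 per group), made from 50000 cells, and the labels do not say that the libraries came from independent differentiations, so a p-value here reflects how these libraries vary, which may be technical.

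Potassium channels let potassium leave or enter the cell along its gradient and so set the resting potential and end action potentials. They fall into voltage-gated (Kcna to Kcnd, Kcnh, Kcnq), inwardly rectifying (Kcnj), leak (Kcnk) and calcium- or sodium-activated (Kcnm, Kcnn, Kcnt) families. Several families have auxiliary or modifying subunits (Kcnab, Kcne, Kcnip, Kcnmb, and the electrically silent Kcnf, Kcng, Kcns and Kcnv) that change gating or traffic of the channel proper. OPCs carry prominent delayed-rectifier and rapidly inactivating potassium currents. Mature oligodendrocytes rely mostly on inward rectifiers, among which Kcnj10 takes up the potassium released by active axons.

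The measure used for each gene was the length of sequence under listed peaks, within the gene and 2 kb on either side, scaled so that every library had the same total. The lists held 125002 to 152595 peaks over 35.0 to 44.1 Mb, and peaks were broader in the OPC lists (298 and 353 bp per peak) than in the OL lists (275 and 270 bp). Reads per peak were not in the lists, so the depth is unknown, and a gene without a peak had none past the authors' threshold. By the marker lists, 6 of 7 tested oligodendrocyte genes, Sox10 and Mag among them, rose in OLs, whereas of 4 OPC markers Sox6 alone passed and was higher in OLs, with Pdgfra at 2.19 and 2.48 kb in OPCs and 2.84 and 2.80 kb in OLs. The summed coverage of the vascular or mesenchymal list was 5.90 and 5.84 kb in OPCs and 1.67 and 1.31 kb in OLs, in the order 129O1, EpiSC5, that of the astrocyte list was 7.18 and 7.57 kb against 4.83 and 4.76 kb, and that of the neuron list was 20.6 and 23.9 kb against 19.8 and 17.9 kb. Cldn5, a marker of endothelium, was at 0 in every library. Of 3 markers of the pluripotent cells of origin Pou5f1 was at 0 in every library, whereas Nanog and Fgf5 had peaks in each, and their sum was 1.23 and 1.26 kb in OPCs and 1.45 and 1.16 kb in OLs. All 3 tested vascular or mesenchymal genes, 2 of 4 astrocyte genes and 3 of 4 neuron genes passed as lower in OLs, and the part of such cells in the results on lower members was not tested.

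Promoter windows, from 250 bp before to 50 bp after a RefSeq transcription start, were given for 69 of the 94 genes (94 windows). The sequences of 6 of them follow, 5′ to 3′ on the strand of the gene, as examples of a window with a peak in 1 cell type alone and, in Kcnj3, of one with a peak in all libraries at a gene that rose. Kcng3 (chr17:83631846-83632145, minus strand), Kcnh7 (chr2:63184238-63184537, minus strand), Kcnc2 (chr10:112269767-112270066, plus strand) and Kcnmb1 (chr11:33962763-33963062, plus strand) had a peak in both OPC libraries and in neither OL library. Kcne4 (chr1:78816661-78816960, plus strand) had a peak in both OL libraries alone. Kcnj3 (chr2:55435720-55436019, plus strand) had a peak in all 4 libraries and belongs to a gene whose coverage rose in OLs. Capitals mark exact matches, on either strand, to short motifs of 5 factor families, which are ACAAAG for SOX factors, CAGCTG for E-box factors, TGANTCA for AP-1, GGGCGG for SP and KLF factors and TTGGCA for the NFI family.
Kcng3: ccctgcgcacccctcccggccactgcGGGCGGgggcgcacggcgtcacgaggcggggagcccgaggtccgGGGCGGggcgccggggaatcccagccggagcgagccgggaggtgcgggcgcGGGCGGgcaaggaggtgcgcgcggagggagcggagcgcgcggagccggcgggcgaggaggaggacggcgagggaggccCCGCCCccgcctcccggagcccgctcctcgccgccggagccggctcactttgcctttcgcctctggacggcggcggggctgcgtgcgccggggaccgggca
Kcnh7: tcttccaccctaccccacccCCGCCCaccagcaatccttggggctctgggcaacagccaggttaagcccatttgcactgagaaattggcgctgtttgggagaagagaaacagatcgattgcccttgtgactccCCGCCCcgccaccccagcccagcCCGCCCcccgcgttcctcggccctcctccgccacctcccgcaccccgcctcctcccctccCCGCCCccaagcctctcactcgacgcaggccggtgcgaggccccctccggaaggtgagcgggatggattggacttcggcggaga
Kcnc2: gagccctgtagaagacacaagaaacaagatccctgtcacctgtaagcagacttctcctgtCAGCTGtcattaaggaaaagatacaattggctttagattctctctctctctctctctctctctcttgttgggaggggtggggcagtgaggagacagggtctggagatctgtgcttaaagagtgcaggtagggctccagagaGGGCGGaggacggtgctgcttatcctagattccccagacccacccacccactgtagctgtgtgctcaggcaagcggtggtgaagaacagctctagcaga
Kcnmb1: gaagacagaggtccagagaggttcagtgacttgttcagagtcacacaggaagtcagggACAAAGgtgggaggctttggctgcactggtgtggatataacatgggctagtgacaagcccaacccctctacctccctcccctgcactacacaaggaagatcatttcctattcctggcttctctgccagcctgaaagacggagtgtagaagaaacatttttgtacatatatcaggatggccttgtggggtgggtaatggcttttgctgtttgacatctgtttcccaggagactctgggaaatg
Kcne4: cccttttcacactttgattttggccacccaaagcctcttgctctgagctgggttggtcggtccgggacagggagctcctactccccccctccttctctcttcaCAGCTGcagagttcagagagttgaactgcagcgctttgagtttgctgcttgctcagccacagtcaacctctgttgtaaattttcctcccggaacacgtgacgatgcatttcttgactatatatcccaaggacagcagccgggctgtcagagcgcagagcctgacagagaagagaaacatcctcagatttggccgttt
Kcnj3: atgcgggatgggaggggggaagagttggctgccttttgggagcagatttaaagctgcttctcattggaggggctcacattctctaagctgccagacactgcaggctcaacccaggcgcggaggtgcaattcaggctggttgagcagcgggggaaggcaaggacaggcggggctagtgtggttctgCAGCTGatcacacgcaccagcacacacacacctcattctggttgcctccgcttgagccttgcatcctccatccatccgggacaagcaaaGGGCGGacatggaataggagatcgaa
The Kcng3 window was 82.0% G and C, held 49 CpG dinucleotides and 4 GGGCGG matches, whereas that of Kcnmb1 was 49.7% G and C, with 1 CpG and a match to ACAAAG. The windows of Kcnc2, Kcne4 and Kcnj3 each held 1 CAGCTG. Over all promoter windows GGGCGG was found in 46.2% and in 47.9% of the Kcn windows, CAGCTG in 15.6% and 25.5%, ACAAAG in 16.8% and 14.9%, TTGGCA in 13.1% and 11.7%, and TGANTCA in 6.99% and 4.26%. A match is a description of the letters and not a binding site.

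Coverage of the potassium channel genes differed between OPCs and OLs in both directions, more often downward in OLs. Of the 94 genes, 68 had a mean of at least 500 bp of covered sequence and were tested, 24 had peaks but less coverage (scaled means of 0.0691 to 0.497 kb), and Kcnk16 and Kcnrg had no peak. By limma across all genes, with Benjamini-Hochberg adjustment, 8 members were higher and 16 lower in OLs. Among all 14543 genes tested, 19.6% passed, against 35.3% of the tested members. By direction, 11% of all genes were higher, close to the 8 of 68 members, and 8.63% were lower, against 16 of 68 members. The genes higher in OLs were Kcna10, Kcne1, Kcnj3, Kcnt1, Kcna4, Kcnh1, Kcnj15 and Kcnq1, and those lower included Kcnc4, Kcnmb3, Kcnb2, Kcng3, Kcng1, Kcnab3, Kcnn3, Kcnn4, Kcnk10, Kcnk12, Kcnh2, Kcnc1, Kcnip1, Kcnk3 and Kcnn2. The median difference, OL minus OPC on the log2(bp + 200) scale used throughout, was -0.13 over the tested members and -0.02 over all tested genes. Of the 24 genes that passed, 6 had a group mean under 500 bp and so entered the test through the group in which they were high. They were Kcna10, Kcnab3, Kcnb2, Kcnc4, Kcng1 and Kcnmb3.

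Of the 68 tested members, 57 (83.8%) moved the same way in 129O1 and EpiSC5, against 74.5% of all genes tested, and those 57 include the 24 that passed, which were chosen on the same libraries. The median over the tested members was -0.13 in 129O1 and -0.19 in EpiSC5. Summed over the 94 genes, the scaled coverage was 198.6 and 204.4 kb in OPCs and 178.1 and 180.4 kb in OLs, so the OL libraries lay below both OPC libraries. The number of peaks in the same genes, unscaled, was 682 and 662 in OPCs and 635 and 750 in OLs, in which the groups overlapped. Kcne1, Kcng3, Kcnj3, Kcnk10 and Kcnt1 were among those that passed without each library in turn, and the number of higher members was 3 without the EpiSC5 OL library, where 7.61% of all genes were higher. Lower coverage in bulk libraries can come from fewer cells with an open site or from less accessibility per cell, which cannot be told apart here.

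**Figure D1:**
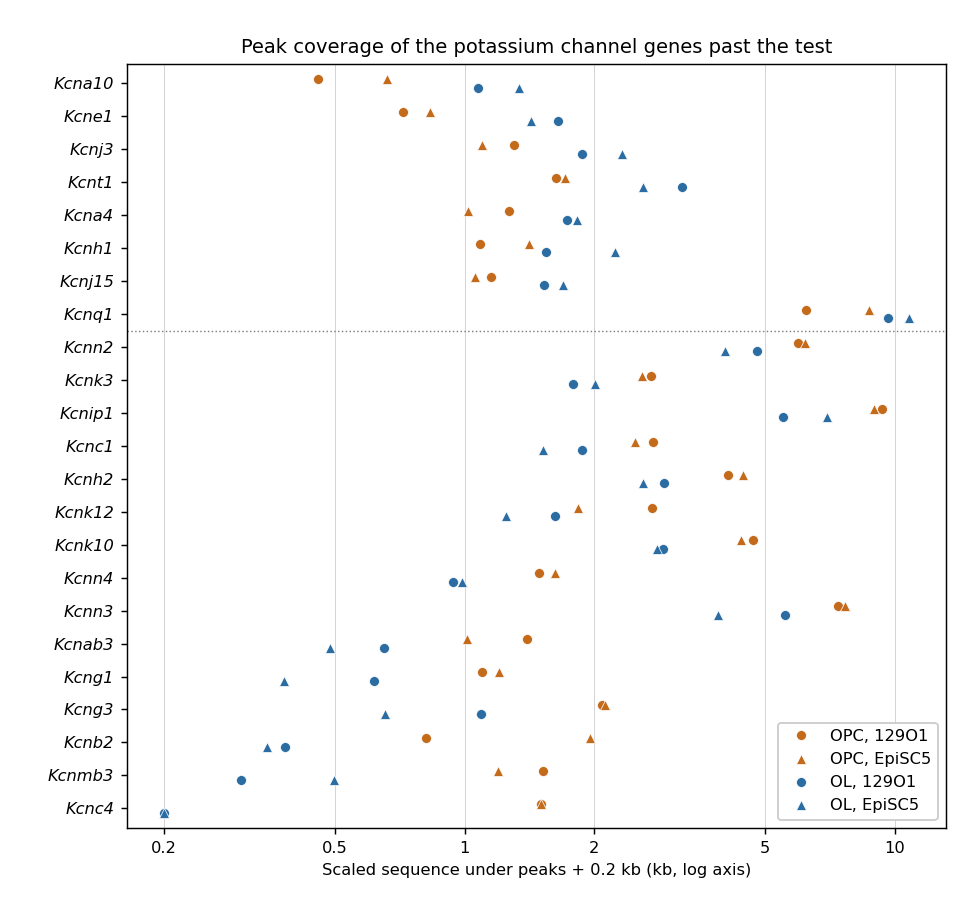
Scaled sequence under peaks plus 0.2 kb (log axis, kb) for the potassium channel genes past the test that are named in the text, with 1 symbol per library (circles 129O1, triangles EpiSC5, orange OPC, blue OL). The 8 genes above the dotted line were higher in OLs and those below it were lower, and Kcnc4 sits at the added 0.2 kb in both OL libraries because it had no listed peak there.

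**Figure D2:**
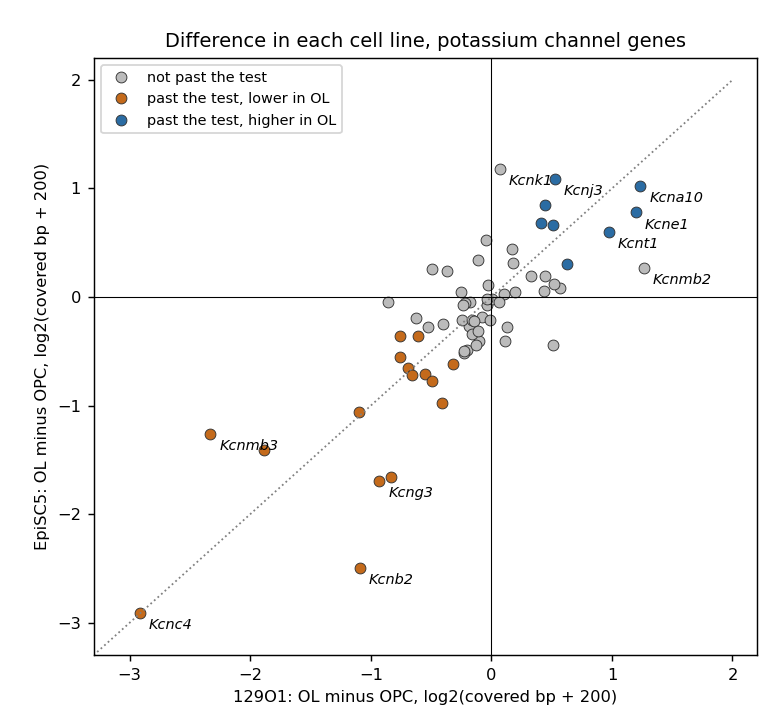
Difference OL minus OPC in log2(covered bp + 200) in EpiSC5 (vertical axis) against 129O1 (horizontal axis), each point a tested gene, blue for the 8 higher and orange for the 16 lower genes, with the dotted line marking equal differences. Of all 68 points 57 lie in the quadrants where both lines moved the same way, the coloured ones among them, which passed on these same libraries.

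Counting peaks gave fewer differences than measuring their length. In the fit on log2(number of peaks + 1), which took genes with a mean of at least 2 peaks, 4 of 69 members passed, all lower in OLs (Kcnc4, Kcnip1 and Kcnk10 among them), against 6.19% of 12465 genes. In a fit blocked on cell line, which pairs the libraries of a line, 7 members were higher and 8 lower by number of peaks, against 18% of all genes. When every peak was cut to 200 bp around its summit, 3 members passed by covered length (Kcnip1 and Kcnk10 among them, all lower), against 7.2% of all genes, and without scaling to the list total 4 did (Kcnc1, Kcnc4 and Kcng3 among them, all lower), against 4% of all genes. Leaving out scaling moved the median of all genes from -0.02 to -0.13 and that of the members from -0.13 to -0.24. No member was higher by these 3 limma fits, where 8, 8 and 6 had an unadjusted p below 0.05 by number of peaks, by summit windows and without scaling. Leaving out 1 library leaves 1 library in a group, so no count of members by number of peaks is given for those fits. Calls by number of peaks were mostly lost in them, over all genes as well, so these calls rest on having all 4 libraries.

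Each of the 10 subfamilies with a tested gene held at least 1 gene that passed. Of all genes tested 19.6% passed, 11% as higher and 8.63% as lower. Apart from Kcne, with 1 tested gene, the share that passed ran from 22.2% in Kcnj to 50% in Kcnm, Kcnn, Kcnt and Kcnu. The inward rectifiers (Kcnj) had the highest median among the subfamilies with at least 3 tested genes, 0.26, with 2 of 9 genes higher and none lower. That median was 0.08 without scaling and turned to -0.07 with a flank of 20 kb. The voltage-gated Kcna to Kcnd genes had 2 of 15 higher and 3 lower with a median of -0.19, and the Kcnh genes 1 of 8 higher and 1 lower with a median of -0.24. Of the leak channels (Kcnk) 3 of 8 were lower and none higher (median -0.13). Of the calcium- and sodium-activated channels with their subunits (Kcnm, Kcnn, Kcnt and Kcnu) 1 of 10 was higher and 4 lower (median -0.12), and of the silent modifiers (Kcnf, Kcng, Kcns and Kcnv) 2 of 5 were lower (median -0.40). Of 57 tested genes for alpha subunits, the silent ones included, 7 were higher and 13 lower, and of 11 auxiliary genes 1 was higher and 3 were lower.

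**Figure D3:**
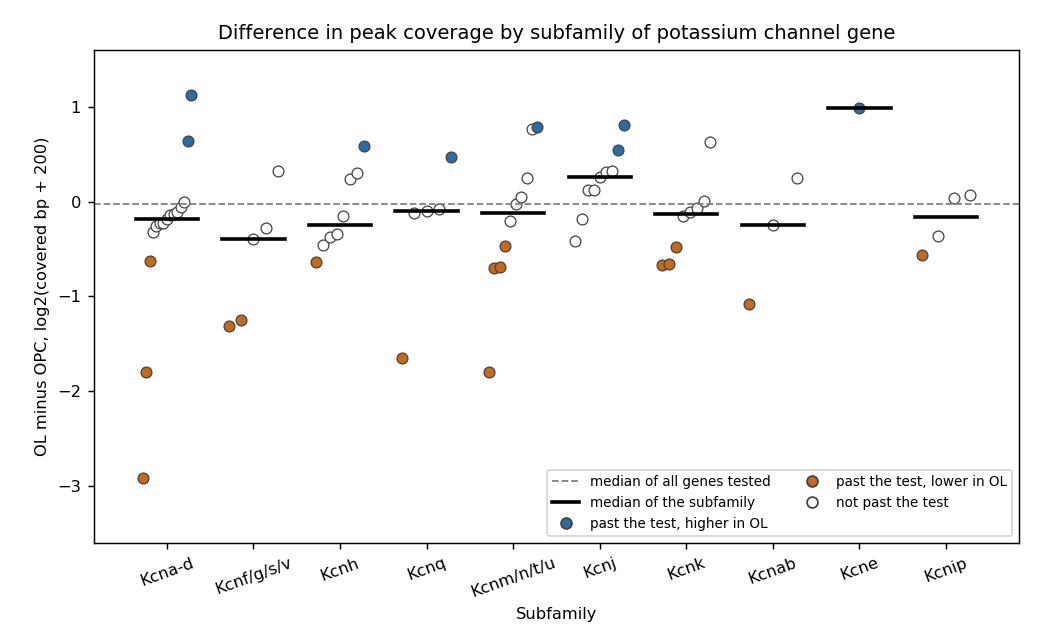
Difference OL minus OPC in log2(covered bp + 200) for each tested potassium channel gene, by subfamily, with bars for the subfamily medians and a dashed line for the median of all genes tested (-0.02). Filled points passed the test (8 higher, 16 lower), and the Kcnj median of 0.26 lies above the dashed line while most other medians lie below it.

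Among the Kcnq genes, Kcnq1 rose in OLs. Kcnq1 (chromosome 7, 143106877 to 143427050), best known from heart and epithelia, covered 6.03 and 8.52 kb in OPCs of 129O1 and EpiSC5 and 9.44 and 10.6 kb in OLs of the same lines, a difference of 0.47 (SE 0.15, adjusted p = 0.0309). The groups did not overlap, but the adjusted p was 0.169 without the EpiSC5 OL library and 0.382 without the 129O1 OPC library. Kcnq3, a subunit of the neuronal M-channel, which damps repetitive firing, covered 6.67 and 7.33 kb in OPCs and 5.58 and 7.56 kb in OLs, where the groups overlapped (difference -0.10, adjusted p = 0.719).

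Kcne1, the single-pass subunit that slows the Kcnq1 channel, also rose. It covered 0.521 and 0.632 kb in OPCs and 1.45 and 1.23 kb in OLs, without overlap (difference 0.99, SE 0.19, adjusted p = 0.00141). The gene held 3 and 3 peaks in OPCs and 3 and 2 in OLs, so its peaks were longer and not more numerous, and by number of peaks the difference turned to -0.30 (adjusted p = 0.556). The other 4 Kcne genes were under the coverage minimum.

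In the Kcna to Kcnd group the clearest change was the loss of every listed peak at Kcnc4. Kcnc4 (chromosome 3, 107438298 to 107460287), a fast, inactivating channel of the Shaw type, covered 1.31 and 1.30 kb in OPCs with 5 and 3 peaks, and no listed peak overlapped it or its flanks in either OL library (adjusted p = 7.21e-05). No fold is given against libraries at 0. Around the RefSeq start, which is inside the interval, the OPC peaks lay mostly 358 to 1418 bp upstream, and the nearest OL peaks began 3418 bp upstream in 129O1 and 4218 bp upstream in EpiSC5, beyond the 2 kb flank of the annotated interval. Leaving out either OPC library took Kcnc4 below the coverage minimum, which it reached only through its coverage in OPCs. Kcnb2, a delayed rectifier, fell from 0.615 and 1.76 kb in OPCs to 0.183 and 0.148 kb in OLs (difference -1.79, SE 0.37, adjusted p = 0.00193). The 2 OPC libraries differed by more than the OL libraries did from the lower of them, with 1 peak in 129O1 and 6 in EpiSC5, and without the EpiSC5 OPC library the gene was below the minimum. Kcnc1, a channel of fast-spiking neurons, covered 2.54 and 2.29 kb in OPCs and 1.67 and 1.32 kb in OLs (difference -0.63, adjusted p = 0.0103). Its adjusted p was 0.117 without the EpiSC5 OL library and 0.0642 without the 129O1 OPC library.

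Members of the Shaker group (Kcna) rose or did not pass. Kcna10, a channel known from sensory hair cells, covered 0.256 and 0.459 kb in OPCs and 0.874 and 1.14 kb in OLs (difference 1.13, SE 0.27, adjusted p = 0.00561). Its OPC mean was under 500 bp, so it entered the test through its OL coverage. Kcna4, which carries a rapidly inactivating current, covered 1.07 and 0.817 kb in OPCs and 1.53 and 1.63 kb in OLs (difference 0.64, SE 0.17, adjusted p = 0.0123). Neither gene's groups overlapped, but without the EpiSC5 OL library the adjusted p was 0.0995 for Kcna10 and 0.0513 for Kcna4, and it was 0.175 for Kcna4 without the EpiSC5 OPC library. Kcna1 and Kcna2, the channels of the axon membrane beside the myelin paranodes, differed by -0.11 and -0.13 (adjusted p = 0.725 and 0.644). Kcna3 and Kcna5, studied in OPC proliferation, differed by -0.05 and -0.01, with adjusted p of 0.902 and 0.994. The genes of the subthreshold A-type current, Kcnd2 and Kcnd3, covered 7.18 and 6.49 kb and 11.9 and 12.2 kb in OPCs and 5.37 and 5.44 kb and 10.6 and 10.5 kb in OLs. Both were lower in each OL library than in each OPC library without passing (differences -0.33 and -0.19, adjusted p = 0.0967 and 0.288).

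Subunits that serve these voltage-gated channels fell where they passed. Kcnip1, a calcium-binding partner of the Kcnd channels, covered 9.14 and 8.75 kb in OPCs with 36 and 36 peaks, and 5.31 and 6.75 kb in OLs with 23 and 29 peaks. The OL libraries lay below both OPC libraries on both measures (covered length -0.56, SE 0.14, adjusted p = 0.00694), and the adjusted p was 0.113 without the 129O1 OL library. Kcng3 and Kcng1, silent subunits that modify Kcnb channels, covered 1.88 and 1.92 kb and 0.896 and 1.00 kb in OPCs and 0.894 and 0.454 kb and 0.415 and 0.180 kb in OLs. Both fell in both lines (differences -1.31 and -1.25, adjusted p = 0.000237 and 0.00570), although Kcng1 was under the minimum without the EpiSC5 OPC library. Kcnab3, a beta subunit of the Kcna channels, covered 1.19 and 0.813 kb in OPCs and 0.450 and 0.286 kb in OLs (difference -1.08, adjusted p = 0.00715). Its OL mean was under 500 bp, so it entered the test through its OPC coverage. Of its covered sequence 66.6% lay in regions of other genes, and its adjusted p was 0.138 without the 129O1 OPC library. The most covered of the Kcnab genes and of the silent modifiers did not pass, Kcnab1 at 3.09 and 4.30 kb in OPCs and 4.25 and 4.49 kb in OLs, and Kcng2 at 1.04 and 2.26 kb and 1.63 and 2.42 kb, where the groups overlapped.

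The inward rectifiers that passed were Kcnj3 and Kcnj15. Kcnj3, a subunit of the G-protein-gated channels, covered 1.11 and 0.896 kb in OPCs and 1.68 and 2.13 kb in OLs (difference 0.81, SE 0.17, adjusted p = 0.00268). Both OL libraries were above both OPC libraries, and the promoter window carried a peak of 107 and 193 bp in OPCs and of 223 and 182 bp in OLs. Kcnj15 covered 0.950 and 0.858 kb in OPCs and 1.33 and 1.49 kb in OLs (difference 0.55, adjusted p = 0.0294). It lost its call without the EpiSC5 OL, the 129O1 OPC or the EpiSC5 OPC library (adjusted p = 0.153, 0.0816 and 0.199). Kcnj10, the rectifier of mature oligodendrocytes and astrocytes, covered 3.10 and 3.68 kb in OPCs and 3.58 and 3.81 kb in OLs. Its groups overlapped (difference 0.12, SE 0.15, adjusted p = 0.663), with 10 and 9 peaks in OPCs and 11 and 13 in OLs. Kcnj16, its partner in heteromeric channels, differed by 0.12 (adjusted p = 0.767) and Kcnj2, a strong rectifier, by -0.18 (adjusted p = 0.506). Kcnj6, the most covered of the family, had 3.94 and 4.66 kb in OPCs and 5.73 and 5.07 kb in OLs, higher in each OL library without passing (difference 0.32, adjusted p = 0.142).

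The leak channels that passed all fell. Kcnk10, a channel gated by stretch and lipids, covered 4.48 and 4.20 kb in OPCs and 2.69 and 2.60 kb in OLs, with 15 and 14 peaks against 6 and 7. The groups were far apart on both measures (covered length -0.67, SE 0.15, adjusted p = 0.00315), and number of peaks fell by 1.17 on the log2 scale (adjusted p = 0.0208). Kcnk10 did not pass without scaling or in the best 50% of each list by q (difference -0.29, adjusted p = 0.448 in the latter). Kcnk12 covered 2.53 and 1.63 kb in OPCs and 1.42 and 1.05 kb in OLs (difference -0.66, adjusted p = 0.0212). Kcnk3, an acid-sensitive channel, covered 2.52 and 2.38 kb in OPCs and 1.59 and 1.81 kb in OLs (difference -0.48, adjusted p = 0.0360). Kcnk12 gave an adjusted p of 0.163 without the EpiSC5 OL library and 0.363 without the 129O1 OPC library, and Kcnk3 lost its call whichever library was left out, at 0.0543 without the EpiSC5 OL, 0.201 without the 129O1 OL, 0.157 without the 129O1 OPC and 0.0832 without the EpiSC5 OPC library. Kcnk1 and Kcnk2, leak channels known in astrocytes, did not pass, at 1.53 and 0.474 kb against 1.62 and 1.33 kb for Kcnk1 (difference 0.63, adjusted p = 0.134) and at 2.98 and 2.75 kb against 2.27 and 3.28 kb for Kcnk2 (difference -0.06, adjusted p = 0.864).

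Among the Kcnh genes, Kcnh1 rose and Kcnh2 fell. Kcnh1 covered 0.885 and 1.21 kb in OPCs and 1.35 and 2.04 kb in OLs (difference 0.59, SE 0.19, adjusted p = 0.0369), and its adjusted p was 0.382 without the EpiSC5 OL library and 0.276 without the 129O1 OPC library. Kcnh2, which repolarises the heart, covered 3.91 and 4.23 kb in OPCs and 2.71 and 2.40 kb in OLs, without overlap (difference -0.63, SE 0.15, adjusted p = 0.00572). Without the EpiSC5 OL library its adjusted p was 0.0577, and by number of peaks, 6 and 7 in OPCs and 7 and 9 in OLs, its difference turned to 0.14 (adjusted p = 0.741). Kcnh8, the most covered of this group, had 5.81 and 3.87 kb in OPCs and 6.54 and 5.33 kb in OLs, which overlapped (adjusted p = 0.241).

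Of the calcium-activated channels of small and intermediate conductance, Kcnn2, Kcnn3 and Kcnn4 fell, and the sodium-activated Kcnt1 rose. Kcnn3 covered 7.18 and 7.46 kb in OPCs and 5.36 and 3.68 kb in OLs (difference -0.70, SE 0.16, adjusted p = 0.00417). Kcnn4, known from immune cells and erythrocytes, covered 1.29 and 1.42 kb in OPCs and 0.742 and 0.788 kb in OLs (difference -0.69, adjusted p = 0.00928). Kcnn2, outside the naming rule and named because it completes the count, covered 5.76 and 5.998 kb in OPCs and 4.59 and 3.84 kb in OLs (difference -0.47, adjusted p = 0.0261, and 0.0529 in the blocked fit). None of the 3 overlapped between groups, but they were chosen for passing on these same libraries. Kcnn1 differed by -0.03 (adjusted p = 0.944). Without the EpiSC5 OL library the adjusted p was 0.0995 for Kcnn3 and 0.249 for Kcnn2, and without the EpiSC5 OPC library 0.129 for Kcnn4 and 0.0644 for Kcnn2. Kcnt1 covered 1.43 and 1.51 kb in OPCs and 2.999 and 2.39 kb in OLs, with 7 and 5 peaks against 10 and 11 (difference 0.79, SE 0.16, adjusted p = 0.00200). Both OL libraries lay well above the OPC libraries, and the call held without each library in turn. Kcnt1 did not pass without scaling. Nor did it by number of peaks, with 200 bp around each summit or in the best 50% of each list by q (adjusted p = 0.126, 0.115 and 0.105).

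Of the tested genes of the large-conductance channel, Kcnmb3 fell and Kcnma1, Kcnmb2 and Kcnmb4 did not pass. Kcnma1, the pore-forming subunit and the most covered of the 94 genes, had 12.6 and 13.7 kb in OPCs and 11.7 and 11.04 kb in OLs. It was lower in each OL library without passing (difference -0.21, adjusted p = 0.230). Kcnmb3, a beta subunit, covered 1.32 and 0.994 kb in OPCs and 0.102 and 0.297 kb in OLs (difference -1.80, SE 0.31, adjusted p = 0.000519), and it was below the coverage minimum without the 129O1 OPC library. Kcnmb2 and Kcnmb4, also beta subunits, differed by 0.77 and 0.04 (adjusted p = 0.119 and 0.902), and the differences between these genes were not tested. Per 100 kb of gene and flanks, the mean coverage over the 4 libraries was 1.71 kb for Kcnma1 and 1.63 kb for Kcnmb3, against 15.98 kb for Kcna3, 10.4 kb for Kcna1, 9.61 kb for Kcnj10 and 0.153 kb for Kcnb2.

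Members that lie beside each other showed both like and unlike differences. On chromosome 3, Kcna3, Kcna2, Kcna10 and Kcnc4 lie in a row, with gaps of 52.8, 68.1 and 242.6 kb, and showed differences of -0.05, -0.13, 1.13 and -2.91. Kcnmb2 and Kcnmb3, 265.0 kb apart on the same chromosome, differed by 0.77 (not past the test) and -1.80. On chromosome 16, Kcnj6 and Kcnj15 are 259.9 kb apart and differed by 0.32 and 0.55, and on chromosome 11, Kcnj16 and Kcnj2, 38.2 kb apart, differed by 0.12 and -0.18. Kcna10 and Kcnc4 both passed, in opposite directions.

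When the peaks of the 4 lists were merged, 1164 regions fell in the potassium channel genes and their flanks. Of these, 161 (13.8%) were covered in both OL lists but not in OPCs (OL-only), 127 (10.9%) had the converse (OPC-only) and 280 were in all lists. Over all protein-coding genes the shares were 16.8% OL-only and 8.84% OPC-only, so OL-only regions made up 55.9% of the type-only regions in the channel genes and 65.6% in all genes. Kcnma1 held 15 OL-only and 12 OPC-only regions and Kcnd2 11 of each, so genes that did not pass as a whole still held regions of both kinds. Kcnq1 held 15 OL-only and 5 OPC-only regions, Kcnd3 11 and 5, Kcnh8 10 and 2, and Kcnip1 7 and 12. The OL-only region of a channel gene with the most sequence under peaks was in Kcnt1 (chromosome 2, 25875658 to 25876337, 680 and 608 bp in the OL lists). The corresponding OPC-only region lay across an end of the Kcnc4 interval, upstream of the RefSeq start within that interval (chromosome 3, 107459256 to 107460316, 885 and 1061 bp). Without the 129O1 OPC library the channel genes held 183 OL-only and 258 OPC-only regions, and without the EpiSC5 OPC library 212 and 297, so the order turned where a peak in the remaining OPC list sufficed. OL-only regions were then 41.5% and 41.7% of the type-only regions, against 50.7% and 48.8% in all genes.

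**Figure D4:**
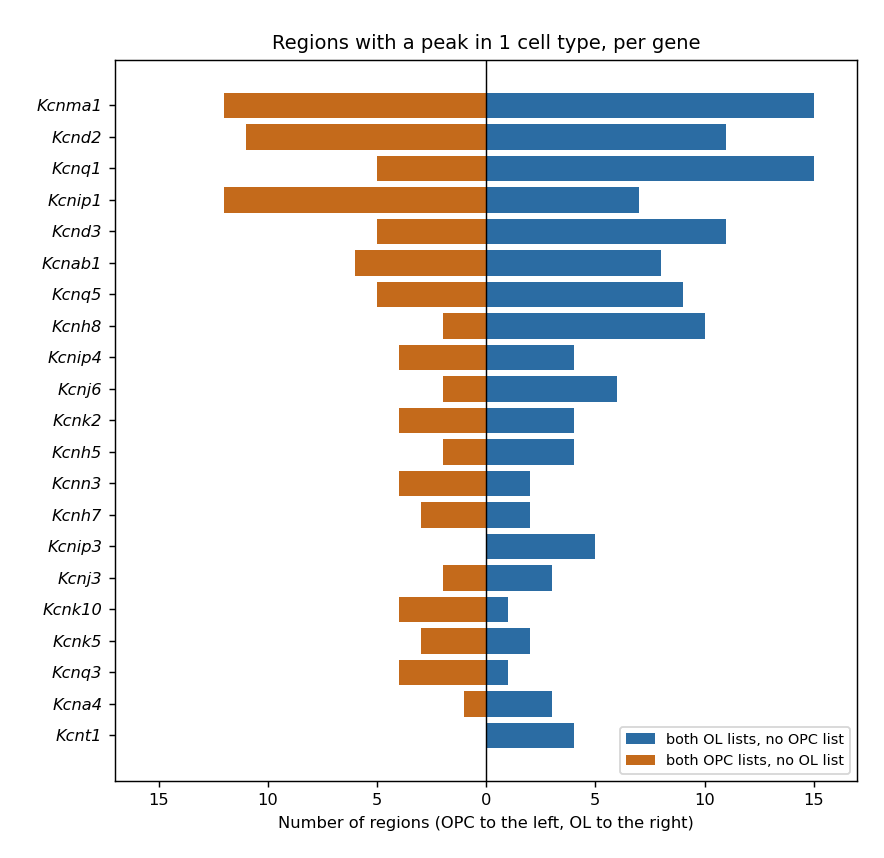
Number of regions per gene with a peak in both OL lists and no OPC list (blue, to the right) or in both OPC lists and no OL list (orange, to the left), for genes among those with most such regions. Kcnma1 and Kcnd2 hold regions of both kinds in near-equal number, Kcnq1 and Kcnh8 more OL-only regions and Kcnip1 more OPC-only regions.

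Regions found in OPCs alone lay closer to transcription starts than those found in OLs alone. Among the genes with a given start, 16 of 108 OPC-only regions (14.8%) and 4 of 135 OL-only regions (2.96%) lay within 1 kb of a start, against 50 of 208 regions present in all lists. Over all genes these shares were 10.7% and 2.01%, in the same order. The median distance to the nearest start was 50.0 kb for OPC-only and 62.0 kb for OL-only regions of the channel genes.

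At the promoter windows themselves, peaks were more often present in OPCs. Of the 94 Kcn windows, 51 and 54 overlapped a peak in OPCs and 42 and 44 did so in OLs. The shares over all 21263 windows were 58.9% and 59.5% in OPCs and 55.7% and 56.1% in OLs, and those of the Kcn windows were 54.3% and 57.4% against 44.7% and 46.8%. In all, 39 Kcn windows (41.5%) had a peak in every library and 39 (41.5%) in none, against 53.5% and 38.2% of all windows. A peak in both OPC libraries alone was found at 6 windows (6.38%, against 2.08% of all windows), belonging to Kcng3, Kcnh7, Kcnc2, Kcnmb1, Kcns1 and an upstream start of Kcnn1, and a peak in both OL libraries alone at 1 (1.06%, against 0.423%), of Kcne4. These 7 were chosen by their peaks, and of their genes Kcng3 alone passed as a whole. Kcne4, the gene with the OL-only peak at its start, nonetheless had less coverage over gene and flanks in OLs, at 0.213 and 0.149 kb against 0.445 and 0.412 kb in OPCs, and was under the minimum for the test. At Kcng3 the peak over the start was 867 bp wide in 129O1 OPCs and 1340 bp in EpiSC5 OPCs, with fold enrichments of 6.33 and 6.24 by the authors' peak caller, and the OL peaks ended at least 547 bp upstream of the start. The Kcnc2 window had OPC peaks of 795 and 783 bp, and the Kcne4 window OL peaks of 188 and 154 bp. Windows with a peak in all libraries had a median of 65.3% G and C, those without a peak 53.0%.

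**Figure D5:**
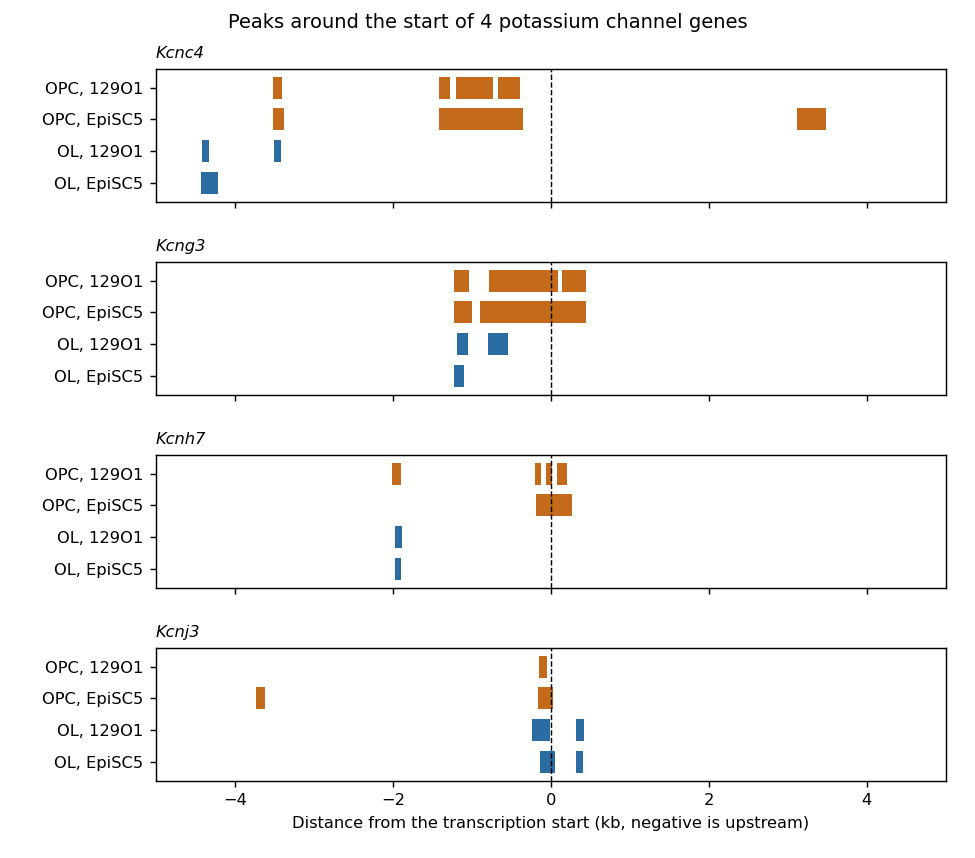
Listed peaks (bars) within 5 kb of the transcription start of Kcnc4, Kcng3, Kcnh7 and Kcnj3 in each library, as distance from the start in kb with upstream negative (orange OPC, blue OL). At Kcng3 and Kcnh7 OPC peaks cover the start and OL peaks lie upstream of it, at Kcnc4 most OPC peaks lie within 1418 bp upstream of the start, and at Kcnj3 all libraries have a peak over or just before the start.

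Genes whose products work beside potassium channels passed about as often as all genes. Of 37 genes for channel partners, potassium pumps and cotransporters, axon-domain adhesion proteins and gap junctions, 33 were tested, 2 were higher and 5 lower in OLs (21.2% of those tested, against 19.6% of all genes), and the median difference was 0.03. Gja1, a gap junction protein of astrocytes that is also on the astrocyte list, fell from 1.25 and 1.59 kb in OPCs to 0.457 and 0.527 kb in OLs (difference -1.22, adjusted p = 0.000360). Dlg1, a scaffold that binds Kcna and Kcnj channels, rose from 2.88 and 2.63 kb to 4.91 and 4.91 kb (difference 0.79, adjusted p = 0.000837). Adam22, which sits with Kcna channels beside the paranodes, fell from 3.598 and 4.604 kb to 2.684 and 2.203 kb (difference -0.70, adjusted p = 0.0051). None of these 3 overlapped between groups, but they too were chosen for passing on these same libraries. With 200 bp around each summit, 2 genes of this list passed, against 7.2% of all genes tested.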

How the data were processed

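Peaks of 4 Omni-ATAC-seq libraries on mm10 were used as the authors deposited them, 1 list per library. The tools named in the submitters' processing notes are MACS2, Picard, Bowtie2 2.3.2 and Trim Galore 0.3.1, and for MACS2 neither version nor threshold is given in the sources used here, nor is the treatment of duplicates or of the Tn5 offset. The deposited lists have 10 columns, among them a start and an end in bp, a score, a fold enrichment as a linear ratio, and p and q as −log10 values, all as the authors' peak caller gave them. Score was not used, fold was used to describe single peaks and −log10 q to rank peaks within a list, with −log10 p to break ties. Peaks were called by the authors in each library, so a library counts as 1 replicate, and depth, as reads, is unknown.

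Genes came from RefSeq (GRCm38.p6) as 1 interval each. Covered bp per gene, with 2 kb on either side, were scaled to the mean list total, and genes averaging at least 500 bp over the 4 libraries were compared on log2(bp + 200). A peak was counted where it overlapped by at least 1 bp. The tool bedtools 2.31.1 served only an alternative way to join peaks into regions, by overlap of at least 50% of the shorter peak. The test of OL against OPC was that of limma 3.58.1, run in R 4.3.3 (moderated, with trend, two-sided, Benjamini-Hochberg over all genes tested, threshold 0.05), a fit checked on simulated data. On this scale the change of sparsely covered genes comes out too small. Number of peaks was tested alike after adding 1, for genes with a mean of at least 2 peaks. Each cell line gave 1 library of each cell type, so lines pair the libraries, and deviations from the group means correlated at r = 0.287 between the libraries of a line over 14543 genes.

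The members and lists were chosen with earlier results of these data known. The naming rule took members past the threshold, up to 15 in each direction by size of the difference, 14 members with known roles in glia or axons, the most covered member of each subfamily and up to 4 partner genes. Some genes that this rule or a list holds are counted in the totals but not reported here by name. Kcnn2, Kcnn1, Kcnmb2, Kcnmb4, Kcnh7, Kcnc2, Kcnmb1, Kcns1 and Kcne4 fall outside it and were named after their values were seen, as were the promoter sequences other than those of Kcng3 and Kcnj3. Regions came from merging peaks of the 4 lists that overlap or touch, and promoter sequences from RefSeq (GRCm38.p6). Alternatives covered scaling, added bp, coverage minimum, flank, peak width, the best 50% by q, lists of equal length, sequence in no other gene, the cell line as a block and each library left out.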

Additional observations from a re-analysis of the deposited data

Results flagged for a closer look

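Among the tested genes that the naming rule took, 4 moved in opposite directions in the 2 cell lines, each line with 1 OPC and 1 OL library. The difference OL minus OPC in log2(covered bp + 200) was 0.0052 in 129O1 and -0.0169 in EpiSC5 for Kcna5. For Kcnj16 it was -0.11 and 0.34, for Kcnk2 -0.37 and 0.24, and for Kcnq3 -0.25 and 0.0444, in the same order. The differences between the lines were not tested, and none of the 4 genes passed the test over both lines.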

How the results depend on the processing

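With the cell line as a replicate block, covered bp gave 8 higher and 15 lower potassium channel genes, Kcnn2 alone changing its call (adjusted p = 0.0529). Of all genes 11% were higher and 8.98% lower in that fit. By number of peaks the block, an alternative added after the data were seen, gave 7 higher and 8 lower members, and no scaling gave 2 and 1. The shares of all genes were 11.5% higher and 6.51% lower with the block, and 4.21% and 2.1% without scaling. Of the 24 genes past the test, 24 kept their call with 50 or 1000 bp added, 17 with median-of-ratios scaling and 9 in the best 50% of each list by q. Higher and lower members numbered 0 and 3 with 200 bp around each summit, 4 and 7 in the best 50%, 0 and 4 without scaling and 0 and 4 by number of peaks. The members tested were 59, 62, 69 and 69 in the same order. Of all genes 5.01%, 6.48%, 1.35% and 4.15% were higher, and 2.19%, 5.54%, 2.65% and 2.04% were lower. The members' median moved to -0.23 in the best 50%, -0.18 without a coverage minimum and -0.24 without scaling. Partner genes past the test numbered 2 with summit windows, 1 without scaling and 2 by number of peaks, against 7.2%, 4% and 6.19% of all genes tested. The best 50% of peaks held 94 OL-only and 72 OPC-only regions, and 25 Kcn windows with a peak in all lists (26.6%, against 48.6% of all windows).

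Leaving out 1 library at a time changed which members passed, with medians of -0.19 to -0.14 over the members and -0.08 to 0.05 over all genes. It gave 183 to 305 OL-only and 147 to 297 OPC-only regions, since a peak in the remaining library then sufficed. There were more OPC-only than OL-only regions without either OPC library. In these fits the group of the library left out holds 1 library, assumed to vary like the other. Kcne1 and Kcnh2 turned direction with summit windows (-0.30 and 0.14) and by number of peaks (-0.30 and 0.14), neither past the test. The cause of these shifts was not tested, and with no read counts a missing peak cannot be told from a weak one.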

Other observations

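Several potassium channel genes with too little coverage for the test, picked here after their values were seen, had more sequence under peaks in both libraries of 1 cell type than in either library of the other. Many others among the 24 genes with peaks but under the minimum showed this too, mostly lower in OLs. The share of all genes that do so was not computed, so the trait is not particular to the genes picked. Kcne2, a neighbour of Kcne1 on chromosome 16 with a gap of 47.9 kb and likewise a single-pass channel subunit, had no listed peak in OPCs and 0.304 and 0.331 kb in OLs, in the order 129O1, EpiSC5. Kcnk18, a leak channel of sensory neurons, covered 0.158 and 0.335 kb in OPCs and 0.716 and 0.667 kb in OLs. Kcnf1 and Kcns3, silent subunits, covered 0.537 and 0.727 kb and 0.629 and 0.828 kb in OPCs, and 0.116 and 0.113 kb and 0 and 0.277 kb in OLs. Kcnmb1, a beta subunit of the large-conductance channel, covered 0.662 and 0.620 kb in OPCs and 0.149 and 0.146 kb in OLs, and its region lies inside that of Kcnip1, so the same peaks count toward both genes. No test was made of these differences at this coverage minimum.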
